A study of Homo sapiens with 12 samples.

Results

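The mRNAs described here encode 9 chaperones and co-chaperones: PTGES3, STIP1, BAG3, HSPA4, HSPH1, HSPA14, TCP1, HSPD1 and CANX. They were taken by gene name from a deposited table of crosslinked clusters, a cluster being a short stretch of RNA covered by reads from 1 eIF3 subunit. The 9 genes are 9 of the 479 genes in that table, and they held 32 of its 1477 clusters. Joined where they overlapped by at least 1 nt on the same strand, the 32 clusters formed 11 sites out of 558.

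Molecular chaperones bind unfolded or newly made proteins and help them fold, and co-chaperones steer the ATP cycle or the clients of a chaperone. In the cytosol, HSP70 takes clients early and HSP90 takes them late, while the ring-shaped chaperonins enclose a client. Most of these genes are expressed in growing cells, and several are induced by heat shock. eIF3 is the large initiation factor through which the small ribosomal subunit is loaded onto mRNA, and crosslinking of its subunits to an mRNA marks where they touched it.

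The table comes from photoactivatable crosslinking and immunoprecipitation (PAR-CLIP) in 293T cells, a line derived from human embryonic kidney. All cells received 100 µM 4-thiouridine for 14 h and 0.15 J per square cm of crosslinking light, and all libraries came through 1 antibody, against eIF3b. After RNase T1 trimming the crosslinked complexes were run on a denaturing gel, and replicate 1 of each subunit carries a random barcode. The 4 groups are eIF3a, eIF3b, eIF3d and eIF3g, with 3 libraries each, and no library without antibody or crosslinking was used here. The table gives 1 value per cluster and subunit with no replicate column, so no value has a spread between libraries and no difference between subunits was tested.

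Intervals on reads are exact 95% intervals that cover counting error only, since the reads are not shown to be independent molecules. Reads in all clusters were 15132 for eIF3a, 19187 for eIF3b, 24150 for eIF3d and 62405 for eIF3g, which is not the depth of the libraries. The lowest cluster of each subunit held 8 reads, so a gene that is not listed may lie under the authors' threshold. Reads at a site depend on the amount of the mRNA as well as on crosslinking, and the table does not separate them. None of 16 marker genes of 293T or other cell types had a cluster, which does not check the cell label because the table holds crosslinked sites and not expression.

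All 9 mRNAs were listed for eIF3a. Of all genes 68.5% were listed for that subunit. For eIF3b 6 of the 9 were listed, where the table as a whole had 55.1%, for eIF3d 6 of 9, with 74.3% in the whole table, and for eIF3g 7 of 9, with 73.3%. PTGES3, BAG3 and CANX, 3 of 9, were listed for all 4 subunits, and 33.6% of all genes were. TCP1, HSPD1 and HSPA14 shared 1 pattern, listed for eIF3a, eIF3d and eIF3g but not eIF3b, which 11.5% of all genes had. HSPA4 and HSPH1, which belong to the same HSP110 family, were listed for eIF3a and eIF3b alone, a pattern of 10 genes in the table or 2.09%. STIP1 lacked only eIF3d.

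The sites lay mostly in 5′ UTRs. Of the 32 clusters, 27 carried the authors' 5′ UTR annotation (84.4%, exact binomial interval 67.2 to 94.7), and over all clusters 67.8% did. Of the remaining clusters, 2 lay at the start codon of STIP1 and 3 in a coding exon of HSPD1. These were 6.25% and 9.4% of the 32, beside 3.79% and 9.82% of all clusters. None lay in an intron or a 3′ UTR, where 125 and 28 of all 1477 clusters lay. The exact binomial interval for 0 of 32 reaches 10.9%, above the 8.46% of all clusters that were intronic. The absence of both therefore does not set the members apart from the table. Clusters of 1 gene share their RNA and most recur in several subunits, so these intervals are narrower than the 9 genes warrant. By site, 9 of 11 were in 5′ UTRs, beside 376 of 558 in the whole table.

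The edges of the sites recurred between subunits. All 11 sites were found in at least 2 subunits, as were 78.7% of all sites in the table, and at 7 of the 11 every listed subunit had the same start and end, which held for 41% of the 439 sites of 2 or more subunits in the table. The clusters outside PTGES3 were 20 to 29 nt wide with a median of 22 nt, and the median of all clusters was 24 nt. PTGES3 was wider, at 37 nt for eIF3a, 49 for eIF3b, 48 for eIF3d and 49 for eIF3g.

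**Figure D1:**
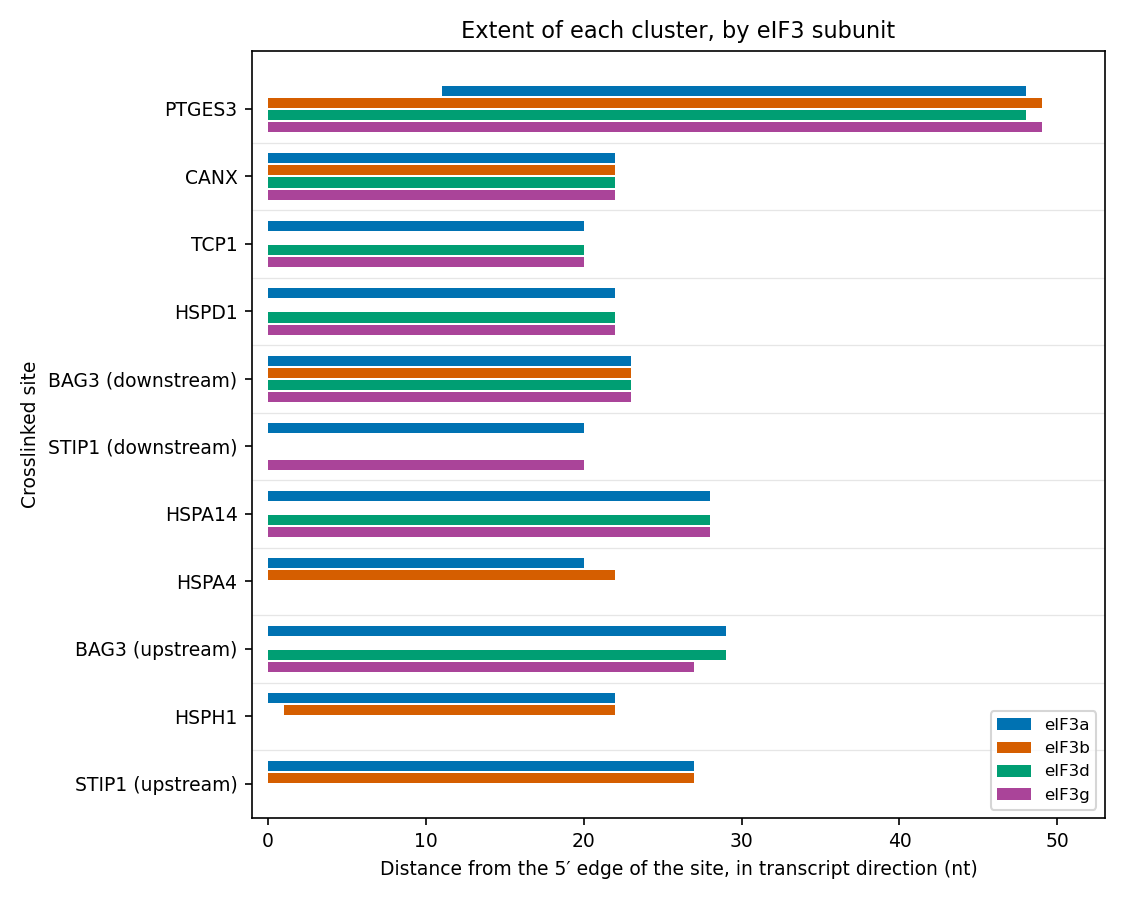
Extent of each cluster in nt from the 5′ edge of its site, in transcript direction, with 1 bar per listed subunit and sites in falling order of summed reads. Bars of 1 site coincide at 7 of 11 sites, and the PTGES3 cluster of eIF3a begins downstream of the PTGES3 clusters of the other subunits.

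PTGES3 had the most reads of the 9 mRNAs in every subunit. It encodes p23, a co-chaperone that binds the ATP-bound form of HSP90 and is also known as a cytosolic prostaglandin E synthase. Its single 5′ UTR cluster (hg19 chromosome 12, 57081989 to 57082038, minus strand, the span over all subunits) held 192 reads for eIF3a (165.8 to 221.2), 239 for eIF3b (209.7 to 271.3), 159 for eIF3d (135.2 to 185.7) and 193 for eIF3g (166.7 to 222.2). It ranked 9 of 375 clusters for eIF3a, 16 of 298 for eIF3b, 19 of 403 for eIF3d and 26 of 401 for eIF3g, so it stood near the top of every list. These reads were 8.73, 12.6, 6.91 and 9.65 times the median cluster of eIF3a, eIF3b, eIF3d and eIF3g. PTGES3 was 17th of 479 genes by summed reads, and the next of the 9, BAG3, was 96th. It supplied between 38.2% of the members' reads in eIF3a and 71.6% in eIF3b.

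**Figure D2:**
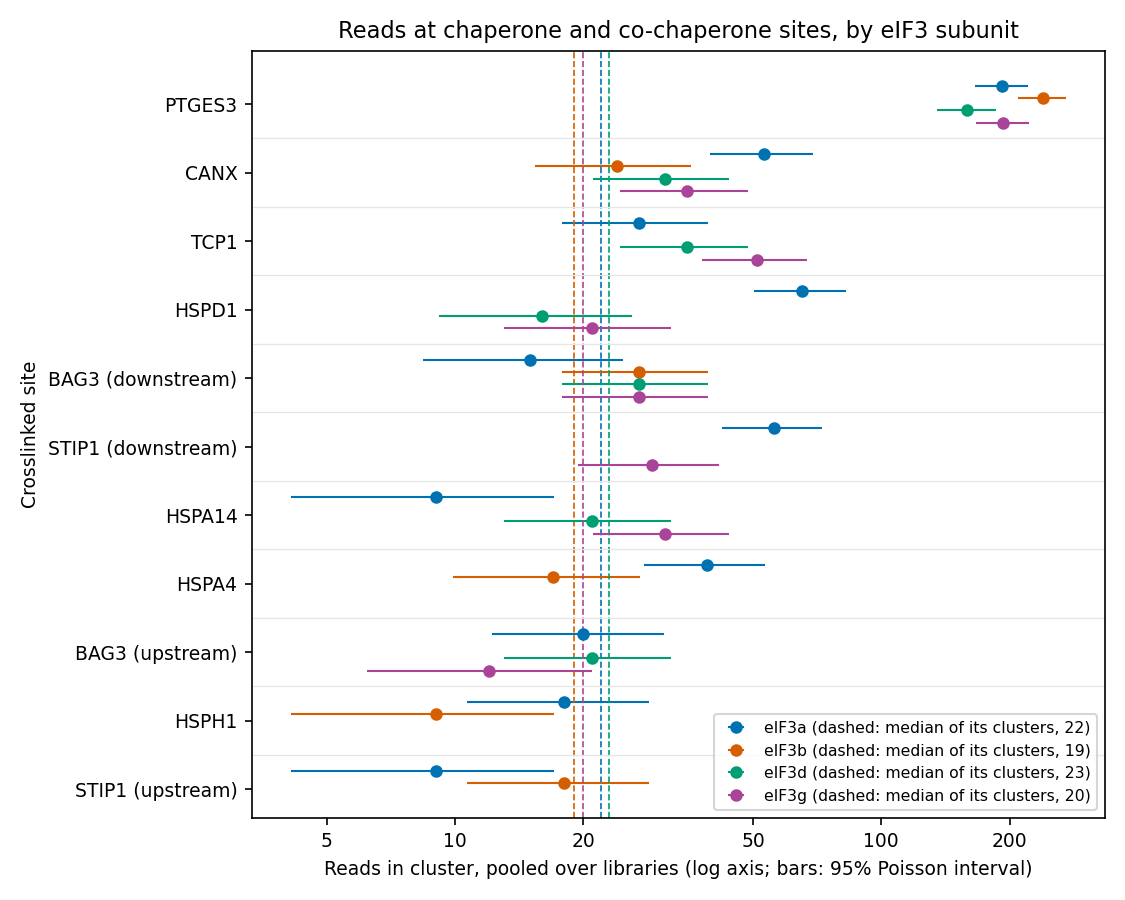
Reads per cluster on a log axis for the 11 sites, with 1 point per listed subunit, 95% Poisson intervals as bars and the median cluster of each subunit as a dashed line. PTGES3 lies between 159 and 239 reads in all 4 subunits, and all other sites lie between 9 and 65.

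STIP1, also called HOP, is the adaptor that holds HSP70 and HSP90 together while a client passes between them. It had 2 sites on chromosome 11, plus strand, separated by 5 nt. The upstream one, in the 5′ UTR (63953683 to 63953710), held 9 reads in eIF3a and 18 in eIF3b. The downstream one, annotated as start codon (63953715 to 63953735), held 56 reads in eIF3a and 29 in eIF3g. Thus eIF3a was listed at both sites, eIF3b only at the 5′ UTR site, eIF3g only at the start codon site and eIF3d at neither. In eIF3a the start codon cluster ranked 58 of 375 and the 5′ UTR cluster 342. STIP1 was the only one of the 9 genes with a start codon cluster, and 23 genes of the table had one.

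BAG3, which releases ADP and client from HSP70 and feeds clients to autophagy, also had a pair of sites, both in its 5′ UTR on chromosome 10, plus strand, and 24 nt apart. The upstream site (121410957 to 121410986) held 20 reads for eIF3a, 21 for eIF3d and 12 for eIF3g, and was not listed for eIF3b. The downstream site (121411010 to 121411033) held 15 reads in eIF3a and 27 in each of eIF3b, eIF3d and eIF3g. The counting intervals of the downstream site overlapped in all 4 subunits, from 8.4 to 24.7 in eIF3a and from 17.8 to 39.3 in the others. At the upstream site those of eIF3a (12.2 to 30.9), eIF3d (13.0 to 32.1) and eIF3g (6.20 to 21.0) overlapped too.

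HSPA4 and HSPH1 encode HSP110 proteins, relatives of HSP70 that act as its nucleotide exchange factors. The HSPA4 5′ UTR cluster (chromosome 5, 132387772 to 132387794, plus strand) held 39 reads in eIF3a and 17 in eIF3b. The HSPH1 5′ UTR cluster (chromosome 13, 31735924 to 31735946, minus strand) held 18 reads in eIF3a and 9 in eIF3b. The ratio of eIF3a over eIF3b was 2.29 (1.27 to 4.32) in HSPA4 and 2.0 (0.853 to 5.05) in HSPH1. The second interval includes 1 and is too wide to show whether the 2 mRNAs had the same ratio. Of all sites shared by these subunits, 23.1% were at least 2 times higher in eIF3a. HSPH1 was the weakest of the 9 genes, 357th of 479 by summed reads.

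HSPA14 encodes an HSP70-like protein that works with DNAJC2 on the ribosome, where it meets nascent chains. Its 5′ UTR cluster (chromosome 10, 14880365 to 14880393, plus strand) held 9 reads for eIF3a, 21 for eIF3d and 31 for eIF3g. The cluster had the same edges in each, yet 4.53% of the clusters for eIF3a had fewer reads, 43.4% for eIF3d and 67.8% for eIF3g. These ranks do not depend on how the subunits are scaled, although a count of 9 reads is uncertain (4.12 to 17.1). RefSeq gives MSANTD7 the same start and strand as HSPA14, so the annotation does not separate their 5′ ends.

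The chaperonins were TCP1 and HSPD1. TCP1 is 1 subunit of the cytosolic ring TRiC, which folds actin and tubulin. Its 5′ UTR cluster (chromosome 6, 160210569 to 160210589, minus strand) held 27 reads for eIF3a, 35 for eIF3d and 51 for eIF3g, above the median cluster of each of these subunits. The share of clusters with fewer reads was 58.1% for eIF3a, 69.0% for eIF3d and 82.5% for eIF3g.

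HSPD1 is HSP60, the chaperonin of the mitochondrial matrix, made from a nuclear gene. It was the only member whose site lay in a coding exon (chromosome 2, 198363495 to 198363517, minus strand), with the same edges in 3 subunits. It held 65 reads for eIF3a (50.2 to 82.8), 16 for eIF3d (9.15 to 26.0) and 21 for eIF3g (13.0 to 32.1), so the eIF3a interval lay above the other 2. It ranked 4 of 42 coding exon clusters for eIF3a, 24 of 38 for eIF3d and 10 of 32 for eIF3g. RefSeq names 22 pseudogenes after HSPD1, 5 after PTGES3 and 3 each after STIP1 and TCP1. The sources used here do not say how reads that fit several copies were placed, so the HSPD1 counts are uncertain in that respect.

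CANX, or calnexin, is the membrane lectin of the endoplasmic reticulum that holds glycoproteins while they fold. Its 5′ UTR cluster (chromosome 5, 179126013 to 179126035, plus strand) had identical edges in all 4 subunits. It held 53 reads for eIF3a (39.7 to 69.3), 24 for eIF3b (15.4 to 35.7), 31 for eIF3d (21.1 to 44.0) and 35 for eIF3g (24.4 to 48.7). The eIF3a and eIF3b intervals did not overlap, and the cluster was above the median of every subunit.

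Each member's strongest cluster was also ranked among all clusters of its subunit. The median share of clusters with fewer reads was 73.6% over the 9 members for eIF3a, 53.2% over 6 for eIF3b, 61.9% over 6 for eIF3d and 67.8% over 7 for eIF3g. Over the strongest clusters of all genes it was 49.9%, 49.0%, 49.4% and 50.6% for eIF3a, eIF3b, eIF3d and eIF3g. Members were also ranked among 5′ UTR clusters alone, which leaves out HSPD1 and the start codon site of STIP1. Their median was then 52.0% for eIF3a, 54.3% for eIF3b, 69.3% for eIF3d and 81.4% for eIF3g. The matching median over all genes was not computed for 5′ UTR clusters, so these 4 values have no background. For eIF3a 6 of 9 members had their strongest cluster at or above the median cluster, as did 52.4% of all its genes. The counts were 3 of 6 for eIF3b, with 51.1% of all its genes, 4 of 6 for eIF3d, with 50.8%, and 7 of 7 for eIF3g, with 53.8%. The 9 genes together gave 3.32% of the reads in clusters for eIF3a, 1.74% for eIF3b, 1.28% for eIF3d and 0.639% for eIF3g. Without EIF3A and noncoding RNA in the total, the shares were 3.72%, 2.77%, 2.03% and 1.72% for eIF3a, eIF3b, eIF3d and eIF3g. The size of the eIF3g share thus depends on the total used. It was the lowest share by both totals, but both keep very large eIF3g clusters, such as an intron cluster of GNL3 (4929 reads) and BTG1 (3109). Totals without such clusters were not tried, so the place of eIF3g in this order is not settled.

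Reads at sites listed for both subunits of a pair were then set against each other, as eIF3a over each other subunit and without scaling. At the 6 sites shared with eIF3b the members' summed ratio was 0.976 (0.835 to 1.14), and it was 1.41 without PTGES3. The median log2 ratio of these sites was 0.34, beside 0.27 over 229 shared sites of all genes. HSPA4, CANX and HSPH1, 3 of 6 sites, were at least 2 times higher in eIF3a, where 23.1% of all shared sites were. The upstream STIP1 site, at 0.50, was 1 of 6 at least 2 times lower in eIF3a, as were 16.6% of all. These counts depended on the scaling. After division by the median ratio of shared sites, HSPA4, CANX and HSPH1 stayed above 1 with none at the 2-fold mark (1.83 in CANX and 1.66 in HSPH1), while 2 sites were at least 2 times lower, the upstream STIP1 site at 0.415 and the downstream BAG3 site at 0.461. Scaled by all reads in clusters, HSPA4, CANX and HSPH1 were at 2.91, 2.80 and 2.54, and the upstream STIP1 site at 0.634 left 0 of 6 sites at least 2 times lower.

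Against eIF3d, over 7 shared sites, the summed ratio was 1.23 (1.06 to 1.43), and the median log2 ratio was -0.07, beside -0.15 over 299 sites. HSPD1 was the 1 of 7 sites at least 2 times higher in eIF3a, at 4.06 (2.32 to 7.52), as 8.7% of all shared sites were, and 97.0% of them had a lower ratio. HSPA14 was the 1 of 7 at least 2 times lower in eIF3a, at 0.429 (0.173 to 0.976), where 19.7% of all were. CANX was next after HSPD1 at 1.71. Scaled by all reads in clusters the summed ratio was 1.96, with 2 sites at least 2 times higher (HSPD1 and CANX, at 2.73) and 0 lower.

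Against eIF3g, over 8 shared sites, the summed ratio was 1.10 (0.954 to 1.26), and the median log2 ratio was 0.30, beside 0.00 over 284 sites. The summed ratio was 4.52 when scaled by all reads in clusters and 1.88 when EIF3A and noncoding RNA were left out of the total, so its size is not settled. HSPD1, at 3.10 (1.87 to 5.33), was again 1 of 8 at least 2 times higher in eIF3a, with 19.7% of all sites, and HSPA14, at 0.290 (0.122 to 0.625), 1 of 8 at least 2 times lower, with 21.8% of all. TCP1 was at 0.529 (0.319 to 0.860). The STIP1 start codon site was at 1.93 (1.21 to 3.14), and the ratio of that STIP1 site became 7.96 and 3.32 under these scalings. Of the 8 sites, 7 were at least 2 times higher in eIF3a by the first scaling and 4 by the second. The HSPD1 ratios stayed above 4 over eIF3d and above 3 over eIF3g under each scaling tried. The HSPA14 ratio over eIF3d stayed below 1 under each scaling, at 0.684 by all reads in clusters, but the one over eIF3g turned to 1.20 and that of TCP1 to 2.18 when scaled by all reads in clusters, of which eIF3g had the most. These 3 comparisons share the eIF3a libraries.

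**Figure D3:**
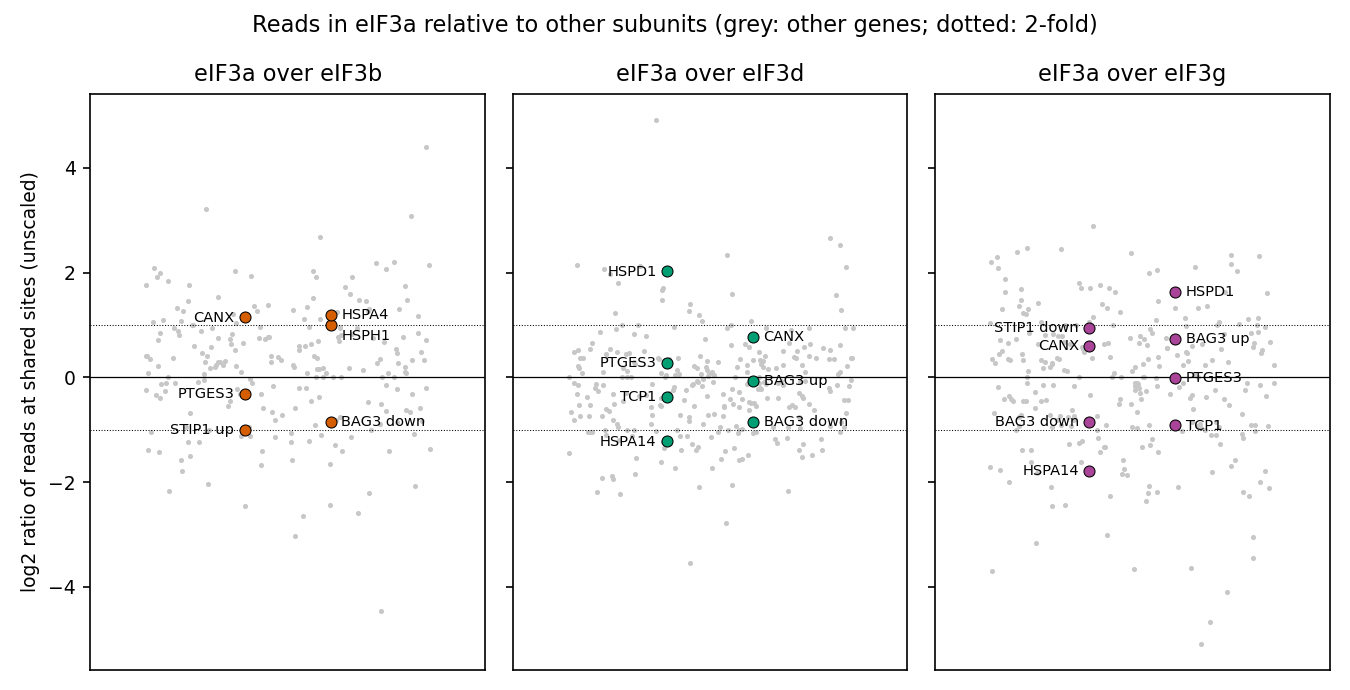
log2 ratio of unscaled reads in eIF3a over eIF3b, eIF3d and eIF3g at sites listed for both, with members in colour ("up" and "down" mark the upstream and downstream site of a gene), other genes in grey and dotted lines at 2-fold. HSPD1 is the highest member over eIF3d and over eIF3g, and HSPA14 the lowest in both.

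A T-to-C conversion marks a crosslinked uridine, and the table gives their number per cluster, which can exceed the reads. Conversions per read of the members had medians of 1.03 for eIF3a, 1.11 for eIF3b, 0.190 for eIF3d and 0.990 for eIF3g, next to 1.02, 1.05, 0.182 and 1.02 over all clusters of eIF3a, eIF3b, eIF3d and eIF3g. All 7 of the members' sites shared by eIF3a and eIF3d had more conversions per read in eIF3a, as did 99.7% of all 299 shared sites. The ratio of eIF3a over eIF3d at these sites had a median of 5.29, and of 5.27 over all sites. The sources used here do not say what the eIF3d entries count.

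The members varied among themselves. In HSPD1 the 65 reads of eIF3a carried 129 conversions and the 21 reads of eIF3g carried 42, or 1.98 and 2.0 per read. The 16 reads of eIF3d carried 6, or 0.375 per read. The share of clusters with a lower value was 95.7% for eIF3a, 85.9% for eIF3d and 96.0% for eIF3g. Values of at least 1.9 occurred in 5.21% of the clusters of eIF3a, eIF3b and eIF3g. Of these 56 clusters 38 were intronic, out of 93 intronic clusters of these subunits, and 5 were in coding exons, out of 107. In coding exons HSPD1 stood beside ADNP and TPP2, a pair named after their values were seen. HSPA14 was the member with the lowest values for eIF3a and for eIF3g, with 4 on the 9 reads of eIF3a and 17 on the 31 reads of eIF3g (0.444 and 0.548 per read), and 4 on the 21 reads of eIF3d.

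PTGES3 had 238 conversions for eIF3a, 298 for eIF3b, 14 for eIF3d and 298 for eIF3g, which is 1.24, 1.25, 0.0881 and 1.54 per read. In eIF3a 86.4% of clusters had a lower value than PTGES3 and in eIF3d 20.1%. The ratio of eIF3a over eIF3d ranged from 2.33 in HSPA14 to 14.1 in PTGES3 and 18.1 in TCP1, where eIF3d had 2 conversions in 35 reads. Among the members' eIF3d clusters, those with the most reads had the lowest values per read. These were PTGES3, at 0.0881 on 159 reads, and TCP1, at 0.0571 on 35. The fewest reads, 16 in HSPD1, went with the highest value, 0.375. Whether these ratios and the 20.1% follow the read depth of eIF3d was not tested. The other members lay close to 1 per read in eIF3a, from 0.889 at the upstream STIP1 site to 1.05 at its start codon. HSPH1 reached 1.44 in eIF3b, on 9 reads, and the upstream BAG3 site 1.42 in eIF3g, on 12 reads.

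**Figure D4:**
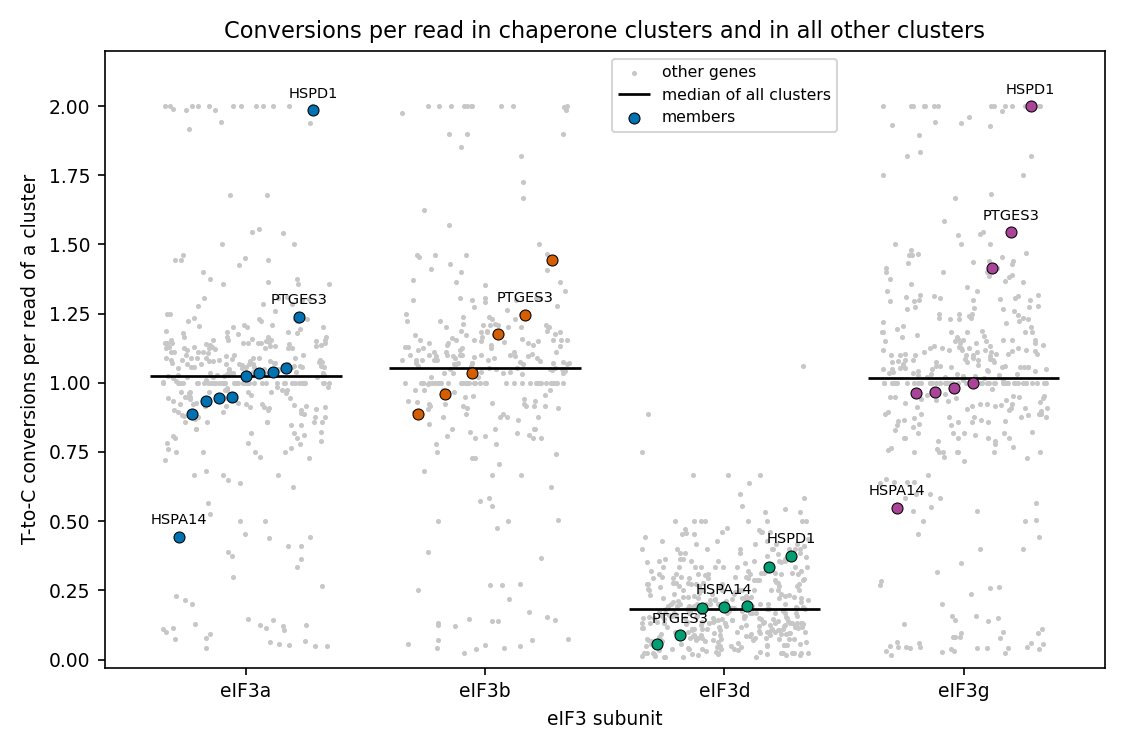
T-to-C conversions per read of each cluster, by subunit, with members in colour, other genes in grey and the median of all clusters as a line. HSPD1 lies at 1.98 in eIF3a and 2.0 in eIF3g, HSPA14 at 0.444 and 0.548, and all eIF3d members lie at or below 0.375.

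Other genes of protein folding were looked up in lists by family, 118 genes in all. Within these lists the 9 members were the only genes with a cluster. The lists were chosen with earlier results of these data known and do not hold every gene of protein folding. Folding genes outside them may therefore have clusters in the table. In the HSP70 and HSP110 family 3 of 16 had one (HSPA4, HSPA14 and HSPH1), among HSP90 and its co-chaperones 2 of 18 (PTGES3 and STIP1), and among BAG proteins and other HSP70 co-chaperones 1 of 11 (BAG3). Of the chaperonins 2 of 11 had one, so TCP1 was listed without the other TRiC subunits and HSPD1 without its partner HSPE1. Of lectin chaperones and folding enzymes of the endoplasmic reticulum CANX was 1 of 12. None of 30 DNAJ (HSP40) proteins, 8 prefoldin genes, 9 small heat shock proteins and 3 heat shock transcription factors had a cluster. The share of all human genes with a cluster was not computed, so these counts have no background to be read against. The table lists only clusters of 8 or more reads and gives no expression, so a missing cluster does not show that eIF3 was absent from an mRNA.

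Likeness of read counts was measured as the Euclidean distance of log2(summed reads + 1) over the 4 subunits. It was taken among 158 other genes listed for all 4, with 1 pooled value per subunit. A small distance marks like read levels and does not require the same order of subunits. Nearest to PTGES3 were PPP3R1, the regulatory subunit of calcineurin, at 0.93 and MORF4L2, a chromatin protein, at 1.00. Nearest to BAG3 were CDV3 at 0.54 and LSM2, a subunit of an RNA-binding ring, at 0.56. Nearest to CANX were the lincRNA RP11-622K12.1-003 at 0.51 and TLE4, a transcriptional corepressor, at 0.53. PPP3R1 had 195 reads for eIF3a, 148 for eIF3b, 206 for eIF3d and 135 for eIF3g, all in its 5′ UTR. Its highest count was thus in eIF3d, where PTGES3 had its lowest.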

How the data were processed

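The authors deposited 1 table of clusters, each with gene, hg19 position, strand, annotation, a read count and a count of T-to-C conversions, both whole numbers without normalization per the file headers. The submitters' processing notes name cutadapt, Bowtie, bedtools and hg19 without versions. The sources used here do not give the cluster caller, its thresholds, how replicates were combined or whether positions count from 0 or 1, so positions are printed as deposited.

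The 12 libraries form 4 groups of 3 by subunit, and nothing in the labels says whether replicates came from separate cultures. Members and gene lists were chosen with earlier results of these data known. Gene names differing in case were joined. Clusters overlapping by at least 1 nt on a strand formed a site. Intervals were exact Poisson for reads and exact binomial for shares and ratios of reads, at 95% (Python 3.11.15, scipy 1.17.1). The joining and the ratios were tested on simulated data. No test was run, since each subunit has 1 pooled value. Names, neighbours and pseudogenes came from RefSeq GRCh38.p14, which held all 9 members and all 118 list genes, and none of its coordinates is printed. Genes named are all members, every list gene with a cluster, and the 2 nearest genes of each member listed for all 4 subunits. Sequences under the clusters are not analysed here.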

Additional observations from a re-analysis of the deposited data

How the results depend on the processing

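Of the 56 alternatives 42 stayed within counting error or within 1.5 times the count, and 14 moved the value. No paired analysis was possible because the table has no replicate column, and leaving out replicates was not run for that reason. With only the 757 clusters at or above their subunit's median reads, 3 members were left for eIF3b and the median conversions per read in eIF3d were 0.137. Ranked among 5′ UTR clusters alone, which leaves out HSPD1 and the start codon site of STIP1, the median share of clusters with fewer reads was 52.0% in eIF3a, 69.3% in eIF3d and 81.4% in eIF3g, and by summed reads per gene it was 68.6% in eIF3a. Scaled by all reads in clusters, the summed ratio of members was 1.24 for eIF3a over eIF3b, 1.96 over eIF3d and 4.52 over eIF3g. Scaled without EIF3A and noncoding RNA it was 1.88 over eIF3g, and scaled by the median shared site 0.809 over eIF3b. Without PTGES3, an alternative chosen after seeing the data, it was 1.41 over eIF3b. The ratio over eIF3b thus has no settled direction. The summed ratio over eIF3d stayed above 1 under each setting, but no setting left out HSPD1 alone, with 65 reads in eIF3a and 16 in eIF3d. Without scaling, 4 of the 7 sites shared with eIF3d were lower in eIF3a, so the summed ratio does not describe each site. As summed conversions over summed reads, in which PTGES3 weighs most, the members had 1.21 per read in eIF3a and 1.29 in eIF3g. Leaving out HSPD1, also chosen after seeing the data, kept the median conversions per read within counting error in eIF3a, eIF3d and eIF3g, and eIF3b has no HSPD1 cluster. Depth limits the weakest sites most, since 9 reads allow 4.12 to 17.1.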
